A study of Homo sapiens with 6 samples.

Results

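The lysosomal genes examined were 54 genes of a list of acid hydrolases, lysosomal membrane proteins and subunits of the vacuolar proton pump (V-ATPase), found by symbol in a table of 21151 genes. All 54 were listed, and all 54 passed the filter on low counts. They fell into 15 genes of the V-ATPase, all with an ATP6 name, and 39 genes of hydrolases, their activator proteins and membrane proteins. RNA sequencing had been done on human dermal fibroblasts of the skin line CCD-1064Sk carrying short-hairpin RNAs, small hairpin transcripts that direct the breakdown of a matching mRNA. In 3 libraries, shControl, the hairpin was a control and the cells are labelled WT. In the other 3 libraries, shZNF469, the hairpins were directed against the zinc-finger gene ZNF469, to learn how it affects the making of extracellular matrix. All 6 libraries come from the same line in the same medium, the series calls the libraries of a group technical replicates, and the number of different hairpins is not given in the sources used here. The p-values below thus reflect the spread among these 6 libraries, which may be technical. The RNA is from whole cultures, in which a change in the number of cells of a kind and a change in RNA per cell cannot be told apart.

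Lysosomes are acidic, membrane-bound compartments in which cells break down matrix proteins, glycosaminoglycans, lipids and worn-out organelles. Soluble hydrolases are made in the endoplasmic reticulum, tagged with mannose 6-phosphate and carried to the lysosome by receptors. The V-ATPase, a rotary pump with a membrane-embedded V0 part and a cytosolic V1 part, uses ATP to acidify the lumen. It also works in endosomes, the Golgi and secretory vesicles. Many lysosomal genes carry a palindromic E-box element near their start that is bound by the transcription factor TFEB and its relatives, and dermal fibroblasts are the cells in which many lysosomal storage diseases are diagnosed.

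Promoter sequences are shown because that shared element is the best-known regulatory feature of this gene set. RefSeq windows of 300 bases on GRCh38.p14 (250 before and 50 after the gene start) were at hand for 39 of the 54 genes. The E-box core CACGTG, which reads the same on both strands, was present in 11 of these 39 windows (28.2%) and in 7.43% of all 27305 windows. The longer palindrome TCACGTGA, which contains that core, was present in 8 of the 39 (20.5%) and in 1.04% of all windows. The sequences below are the 250 bases before the start, 5′ to 3′ on the strand of the gene, with each CACGTG in capitals. GAA and NEU1 were the 2 genes with a core among the 8 genes that rose in shZNF469 and had a window, and LAMP1 and ATP6V1G1 carry it but did not pass the test.

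GAA: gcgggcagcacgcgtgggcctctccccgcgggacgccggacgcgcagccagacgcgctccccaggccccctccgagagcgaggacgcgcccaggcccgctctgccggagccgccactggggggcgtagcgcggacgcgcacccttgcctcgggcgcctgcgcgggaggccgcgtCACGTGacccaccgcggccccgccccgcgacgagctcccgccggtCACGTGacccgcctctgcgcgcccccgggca

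NEU1: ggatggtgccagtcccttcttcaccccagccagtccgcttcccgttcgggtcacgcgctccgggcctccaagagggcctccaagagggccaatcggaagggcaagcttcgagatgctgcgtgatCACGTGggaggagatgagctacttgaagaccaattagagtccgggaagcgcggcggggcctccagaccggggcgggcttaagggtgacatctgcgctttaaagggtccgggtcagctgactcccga

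LAMP1: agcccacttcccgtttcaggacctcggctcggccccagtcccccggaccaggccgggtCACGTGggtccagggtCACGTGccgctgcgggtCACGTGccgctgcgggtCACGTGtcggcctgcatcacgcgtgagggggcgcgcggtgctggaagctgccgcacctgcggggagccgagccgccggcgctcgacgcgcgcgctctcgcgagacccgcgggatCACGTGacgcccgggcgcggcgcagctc

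ATP6V1G1: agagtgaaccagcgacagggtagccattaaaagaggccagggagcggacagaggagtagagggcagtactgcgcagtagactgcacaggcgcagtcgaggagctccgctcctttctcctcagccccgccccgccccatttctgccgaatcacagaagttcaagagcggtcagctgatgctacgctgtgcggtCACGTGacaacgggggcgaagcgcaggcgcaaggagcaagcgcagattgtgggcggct

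These stretches lie at chr17:80101331-80101580 (GAA, plus strand), chr6:31862822-31863071 (NEU1, minus strand), chr13:113296989-113297238 (LAMP1, plus strand) and chr9:114587519-114587768 (ATP6V1G1, plus strand). GAA held 2 cores and LAMP1 5, while NEU1 and ATP6V1G1 held 1 each. The core was about as frequent in the windows of genes that rose (2 of 8, 25%) as in those of genes that did not pass (9 of 31, 29%). By group, it was in 8 of 29 windows of hydrolases and membrane proteins (27.6%) and in 3 of 10 windows of V-ATPase genes (30.0%). A match of these letters is a description of the sequence and not a measured binding site.

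Libraries held 35417366 to 48298264 counts. ZNF469 was at 39.7, 46.2 and 39.9 CPM (counts scaled to library size) in shControl and at 21.4, 18.3 and 18.5 CPM in shZNF469 (log2 fold change -1.12, SE 0.09, edgeR adjusted p = 0.000873), so the targeted gene was lower in each library labelled as knockdown. All 10 fibroblast markers checked were listed, with a summed abundance of 31167 to 33579 TPM (abundance scaled to transcript length and library size) in shControl and 24224 to 25660 TPM in shZNF469. The collagen genes COL1A1, COL1A2 and COL3A1 fell (means of 8286 to 2434, 8959 to 4844 and 1207 to 679 TPM), VIM rose (9751 to 11983 TPM), and the other 6 did not pass. Of 8 macrophage markers, which would point to cells rich in lysosomes, 2 were listed, CD14 and MSR1, and their summed abundance was 1.48 to 2.60 TPM in shControl and 1.04 to 2.02 TPM in shZNF469. PTPRC, CD163, CSF1R, LYZ, MARCO and ITGAM were not listed. Of 6 melanocyte markers only PMEL was listed, at 15.1 to 15.6 TPM and 27.8 to 32.2 TPM, a 2.01-fold rise (edgeR adjusted p = 0.000525). Mitochondrially encoded transcripts took 3.73 to 4.06% of counts in shControl and 4.22 to 4.70% in shZNF469, and the part of this share and of the marker levels in the results was not tested.

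Some of the hydrolase and activator protein genes rose in the knockdown, while most did not pass the test. Of the 10 membrane protein genes 1 rose, a share of 10% called against 9.9% of all genes tested. Of the 39 hydrolase and membrane protein genes, 13 rose, 0 fell and 26 did not pass at an adjusted p under 0.05 (edgeR's quasi-likelihood test, adjusted over all 16353 genes tested). Across all genes tested 4.56% rose and 5.34% fell (9.9% in either direction), and among the 9493 genes with a mean of 10 CPM or more, the range in which all 54 lie, 6.47% rose and 7.02% fell. The median log2 fold change, shZNF469 minus shControl, was 0.21 over the 39 genes and 0.00 over all genes tested. None of the 39 was lower even at an unadjusted p under 0.05, where 21 were higher, and DESeq2 called 21 higher and 0 lower. At that unadjusted p, 1984 of all 16353 genes tested were higher and 2017 lower. Of the 9493 genes with a mean of 10 CPM or more, 1556 were higher and 1496 lower at it. DESeq2 called 1638 genes higher and 1642 lower in all. In 24 of the 39 every knockdown library was above every control and in 2 every one was below, against 15.6% and 15.7% of all genes tested. Among the genes with a mean of 10 CPM or more these shares were 18.5% and 18.4%. Of the 15 V-ATPase genes, 0 rose and 0 fell by edgeR, 1 was higher and 4 were lower at an unadjusted p under 0.05, and DESeq2 called 1 higher and 3 lower. Their median log2 fold change was -0.07. The difference between the groups of genes was not itself tested, since the genes were chosen with earlier results of these data known.

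The count of 13 depended on single libraries. It was 6, 7 and 6 without shControl replicates 1, 2 and 3 and 5, 18 and 7 without shZNF469 replicates 1, 2 and 3. Of the 13, 5 genes (NPC1, ASAH1, GM2A, IDS and TPP1) passed in each of the 13 alternative settings tried. In all, 31 of the 39 genes had a log2 fold change above 0 in every setting.

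**Figure D1:**
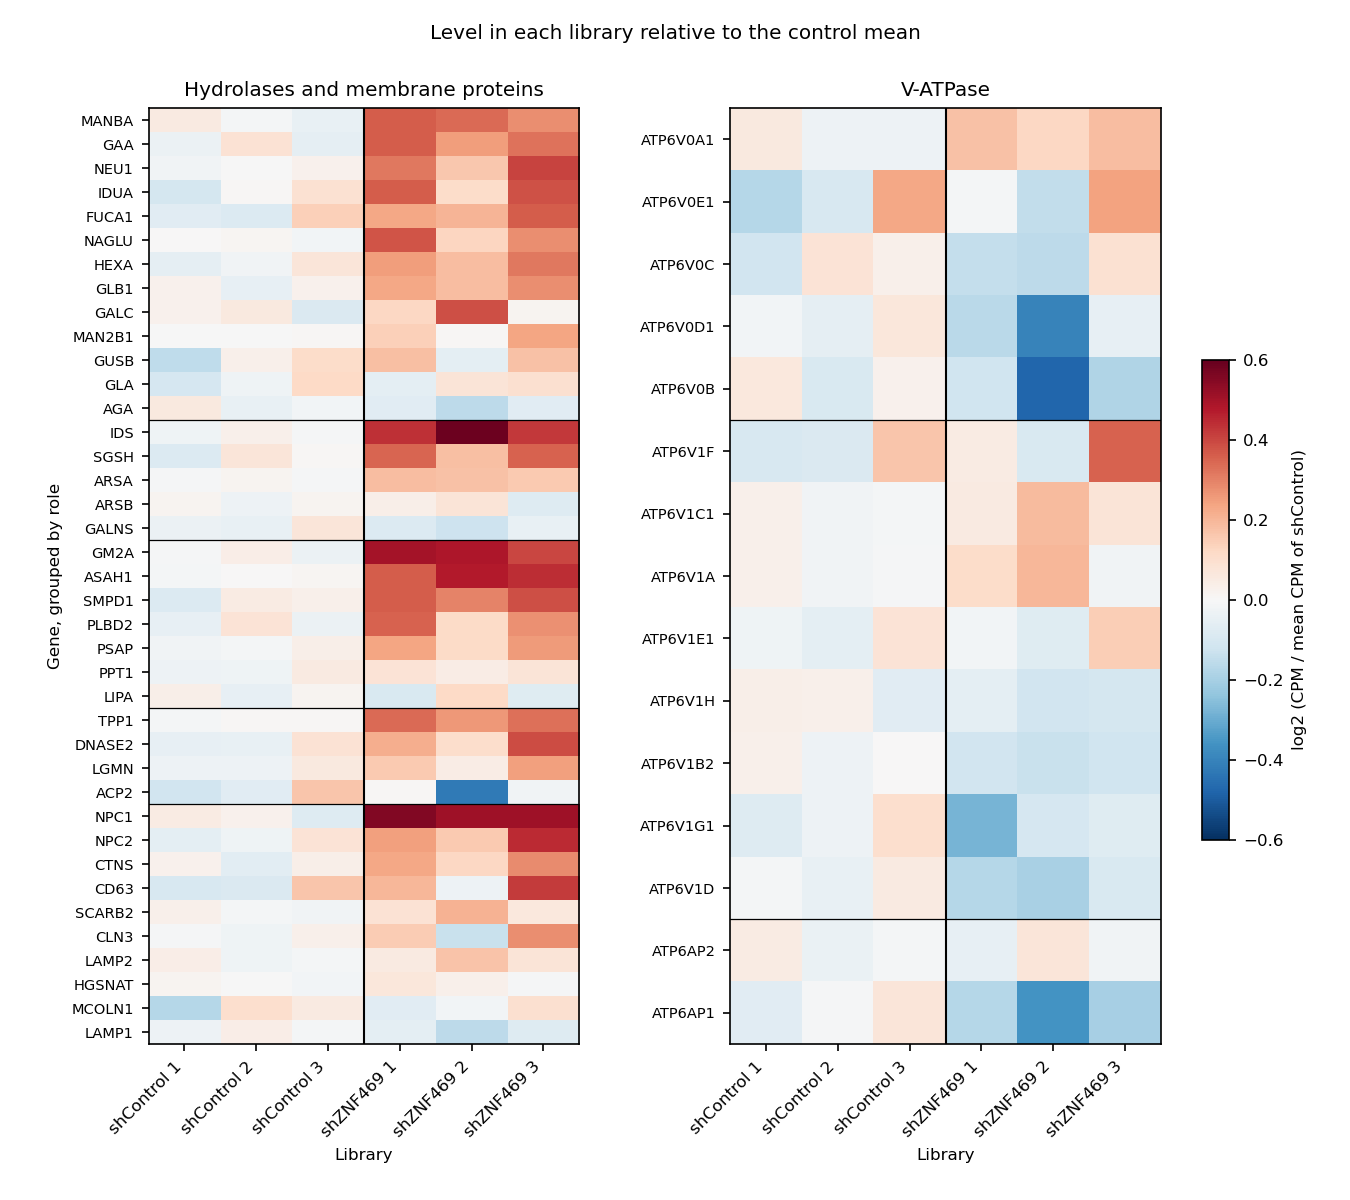
Level of each of the 54 genes (rows, grouped by role and ordered by fold change) in each of the 6 libraries (columns), as log2 of CPM over the mean CPM of shControl; red is above and blue below that mean. Most rows of hydrolases and membrane proteins are red in all 3 knockdown libraries, led by NPC1, IDS, GM2A and ASAH1, while V-ATPase rows are mixed.

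Glycosidases, which cut sugars off glycoproteins, glycolipids and glycosaminoglycans, held 5 of the 13 rises among 13 tested genes, with a median log2 fold change of 0.25. MANBA (beta-mannosidase, chromosome 4, 102630770 to 102760968) was at 56.1, 53.7 and 52.4 CPM in shControl and 69.4, 68.4 and 65.6 CPM in shZNF469. All 3 knockdown libraries lay above all controls, a 1.25-fold rise (log2 fold change 0.33, SE 0.05, adjusted p = 0.0110). GAA, the acid alpha-glucosidase that breaks down glycogen and is deficient in Pompe disease, was at 137, 149 and 135 CPM with the control hairpin against 180, 167 and 175 CPM after knockdown. That was a 1.24-fold rise without overlap (log2 fold change 0.31, SE 0.06, adjusted p = 0.0204). HEXA, the alpha subunit of beta-hexosaminidase that is deficient in Tay-Sachs disease, was at 292, 299 and 319 CPM and at 361, 345 and 377 CPM. It rose 1.19-fold (log2 fold change 0.25, SE 0.06, adjusted p = 0.0338), with shZNF469 replicate 2 the lowest of the knockdown libraries in CPM. In TPM the groups of HEXA overlapped, at 286, 318 and 279 in shControl and 402, 335 and 281 in shZNF469.

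GLB1, the beta-galactosidase whose activity is used as a senescence stain, was at 171, 163 and 172 CPM with the control hairpin against 198, 192 and 205 CPM after knockdown (1.18-fold higher, SE 0.05 on the log2 scale, adjusted p = 0.0317). NEU1, the lysosomal sialidase, was at 79.8, 80.9 and 82.4 CPM and at 101, 90.8 and 108 CPM (1.23-fold higher, adjusted p = 0.0401). Both were free of overlap, and the controls of NEU1 lay closer together than its knockdown libraries. The calls of these glycosidases were not robust to leaving out a library. Without shControl replicate 1, 2 or 3 or shZNF469 replicate 1 or 3, the adjusted p of HEXA was 0.125, 0.113, 0.0598, 0.113 and 0.0836, that of GLB1 0.1, 0.124, 0.0969, 0.104 and 0.0729, and that of NEU1 0.136, 0.124, 0.116, 0.129 and 0.0796. For GAA the call failed on leaving out shControl replicate 1 or 3 or shZNF469 replicate 1 or 3 (adjusted p = 0.0955, 0.0879, 0.0866 and 0.0528). For MANBA it failed on leaving out shControl replicate 2 or 3 or shZNF469 replicate 1 (adjusted p = 0.0568, 0.0573 and 0.0553). In the fits with 1 library left out, 0 to 7 glycosidases were higher, the 7 without shZNF469 replicate 2. limma called 0 glycosidases higher on log2(TPM + 1) and 0 on log2(TPM + 0.1).

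The other 8 glycosidases did not pass. IDUA (alpha-L-iduronidase), NAGLU and FUCA1, which act on glycosaminoglycans or fucosylated sugars, had no overlap between groups and log2 fold changes of 0.29, 0.27 and 0.27 (adjusted p = 0.101, 0.0585 and 0.0786). NAGLU for example was at 78.1, 78.7 and 77.2 CPM with the control hairpin against 101, 85.3 and 94.6 CPM after knockdown. MAN2B1, GALC and GUSB were at log2 fold changes of 0.13, 0.19 and 0.10. GLA, the alpha-galactosidase of Fabry disease, was at 16.4 ± 1.27 and 16.8 ± 0.982 CPM (SD, n = 3). AGA cleaves the link between asparagine and sugar and is thus not a glycosidase in the strict sense, but it was counted in this role. It was the 1 gene of the role below 0, at 55.5, 51.7 and 52.7 CPM and then 50.8, 47.8 and 50.8 CPM (log2 fold change -0.10, adjusted p = 0.335).

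Sulfatases, which remove sulfate groups from glycosaminoglycans and sulfolipids, held 2 rises among 5 genes. IDS, the iduronate sulfatase that acts on heparan and dermatan sulfate (chromosome X, 149476988 to 149505306), was at 154, 160 and 155 CPM with the control hairpin against 212, 235 and 210 CPM after knockdown. The groups lay far apart, with a 1.40-fold rise (log2 fold change 0.49, SE 0.06, adjusted p = 0.00381). SGSH, which removes sulfate from heparan sulfate, was at 72.6, 80.9 and 77.2 CPM and at 97.9, 87.1 and 98.3 CPM (1.23-fold higher, adjusted p = 0.0424). Its call was lost without shControl replicate 1, 2 or 3 (adjusted p = 0.144, 0.0795 and 0.130) and without shZNF469 replicate 1 or 3 (0.139 and 0.0984), which left IDS as the called sulfatase in those fits. ARSA, the arylsulfatase of sulfatide breakdown, was at 52.2, 53.1 and 52.2 CPM and at 59.8, 59.3 and 58.5 CPM. Its groups did not overlap, but at a log2 fold change of 0.17 it did not pass (adjusted p = 0.0572), and its TPM was 36.5 and 36.9 in the 2 groups. ARSB and GALNS had log2 fold changes of 0.02 and -0.08.

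Lipid hydrolases and their activator proteins held 4 rises among 7 genes, with a median log2 fold change of 0.25. GM2A, the activator that presents the ganglioside GM2 to beta-hexosaminidase (chromosome 5, 151253185 to 151270440), was at 102, 105 and 99.9 CPM with the control hairpin against 145, 143 and 135 CPM after knockdown. It rose 1.38-fold without overlap (log2 fold change 0.46, SE 0.05, adjusted p = 0.00309). ASAH1, the acid ceramidase (chromosome 8, 18055992 to 18084961), was at 270, 271 and 273 CPM and at 349, 377 and 369 CPM. The controls differed little and the knockdown libraries were all higher, by 1.35-fold (log2 fold change 0.43, SE 0.05, adjusted p = 0.0026).

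SMPD1, the acid sphingomyelinase, was at 113, 124 and 122 CPM with the control hairpin against 154, 147 and 157 CPM after knockdown (1.27-fold higher, adjusted p = 0.0112). PSAP, the precursor of the saposins that assist sphingolipid breakdown, was the member with the most counts, at 1878, 1888 and 1951 CPM and then 2248, 2063 and 2274 CPM. Its rise was 1.15-fold without overlap (log2 fold change 0.20, SE 0.05, adjusted p = 0.0336). The call of PSAP was lost without shControl replicate 1, 2 or 3 (adjusted p = 0.114, 0.0974 and 0.0777) and without shZNF469 replicate 1 or 3 (0.122 and 0.0912), and that of SMPD1 without shControl replicate 1 or shZNF469 replicate 1 (0.0570 and 0.0566). Those losses left 2 called genes of this role in the fits without shControl replicate 1 or shZNF469 replicate 1. PLBD2, a phospholipase B-like protein, was at 280, 307 and 283 CPM and at 370, 314 and 351 CPM (log2 fold change 0.25, adjusted p = 0.0746). LIPA, the acid lipase that frees cholesterol and fatty acids, was at 236 ± 7.16 and 234 ± 19.4 CPM, and PPT1, the palmitoyl-protein thioesterase, at 99.8 ± 3.23 and 105 ± 1.54 CPM. In GENCODE release 29, 23.4% of the exon bases of PPT1 lie opposite the abundant gene CAP1 (455 CPM in shControl), so without a stated strand setting the value of PPT1 is uncertain.

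Among the protease, nuclease and phosphatase genes, TPP1 was the 1 of 4 that passed. TPP1, a tripeptidyl peptidase deficient in a neuronal ceroid lipofuscinosis (chromosome 11, 6612768 to 6619422), was at 409, 414 and 414 CPM with the control hairpin against 521, 494 and 519 CPM after knockdown. The rise was 1.24-fold without overlap (log2 fold change 0.31, SE 0.04, adjusted p = 0.00577). DNASE2, which digests DNA in lysosomes, was at 85.1, 85.4 and 93.4 CPM and at 102, 94.6 and 115 CPM, short of the threshold (adjusted p = 0.123). LGMN, the asparaginyl endopeptidase, had a log2 fold change of 0.15 (adjusted p = 0.217) and ACP2, the lysosomal acid phosphatase, -0.13 (adjusted p = 0.619).

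The member with the lowest p was a membrane protein. NPC1, which exports cholesterol from the lysosome and is deficient in Niemann-Pick disease type C (chromosome 18, 23506184 to 23586506), was at 383, 376 and 350 CPM with the control hairpin against 543, 527 and 527 CPM after knockdown. The groups were well separated, and the 1.44-fold rise (log2 fold change 0.53, SE 0.05, adjusted p = 0.00134) was the highest of the 54 genes. NPC2, the soluble protein that hands cholesterol to NPC1, was at 226, 231 and 249 CPM and at 279, 262 and 321 CPM. Its groups did not overlap, yet its knockdown libraries were spread widely and it did not pass (log2 fold change 0.29, SE 0.08, adjusted p = 0.0725), although it did in 6 of the 13 alternative settings.

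The other membrane protein genes did not pass. LAMP1, the most used marker of lysosomal membrane, was at 691, 726 and 699 CPM with the control hairpin against 677, 632 and 669 CPM after knockdown (a log2 difference of -0.10, SE 0.05, adjusted p = 0.245). LAMP2, which serves in membrane stability and chaperone-mediated autophagy, was at 473, 452 and 456 CPM and at 477, 518 and 485 CPM (log2 fold change 0.10, SE 0.05, adjusted p = 0.261). The groups did not overlap for either gene, LAMP1 lying lower and LAMP2 higher. The tetraspanin gene CD63 varied widely, at 1009, 1013 and 1211 CPM and then 1239, 1054 and 1442 CPM, and its groups overlapped (adjusted p = 0.357). CTNS, the cystine exporter, had a log2 fold change of 0.21 without overlap (adjusted p = 0.0737) and passed with DESeq2. SCARB2 (receptor of beta-glucocerebrosidase), CLN3, HGSNAT and the calcium channel gene MCOLN1 were at log2 fold changes of 0.12, 0.11, 0.03 and 0.00.

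**Figure D2:**
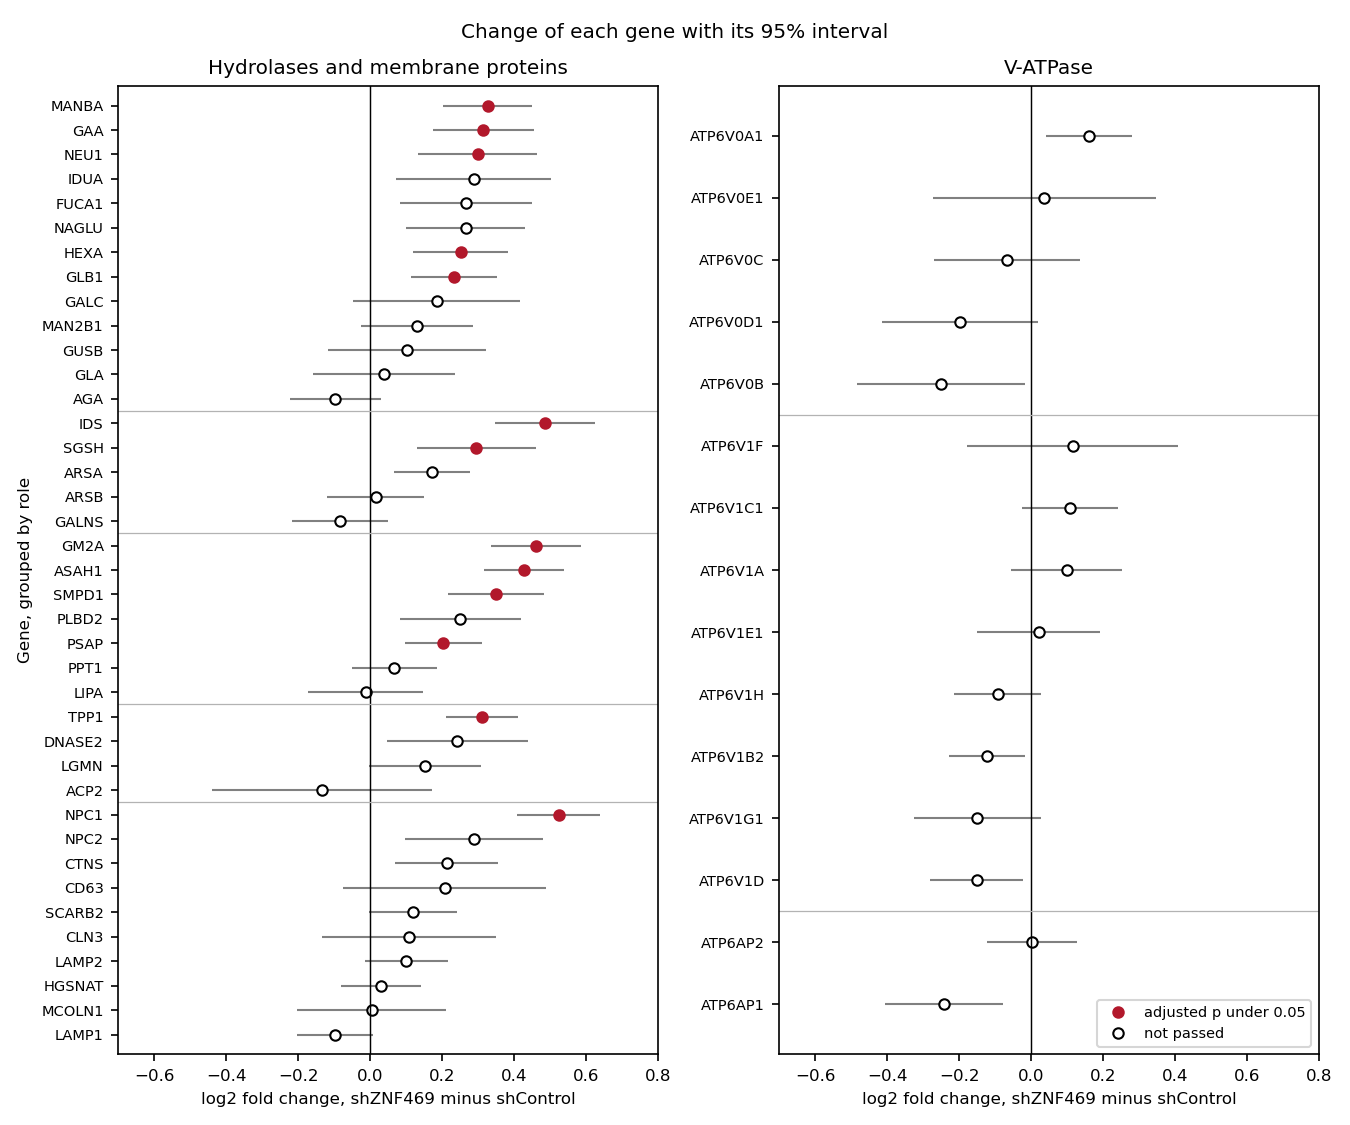
log2 fold change (shZNF469 minus shControl, n = 3 libraries per group) of each of the 54 genes with its 95% interval from edgeR, grouped by role; filled points passed at an adjusted p under 0.05. The 13 filled points all lie to the right of 0 and all in the panel of hydrolases and membrane proteins, where 34 of 39 estimates are above 0, against 7 of 15 for the V-ATPase.

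No V-ATPase gene passed the test. Over the 15 genes the log2 fold changes ran from -0.25 to 0.16. The lowest bound of any 95% interval was -0.48, for ATP6V0B, and the highest was 0.41, for ATP6V1F. In the membrane-embedded V0 part, ATP6V0A1 (a subunit of the proton path) was at 52.2, 49.1 and 49.1 CPM with the control hairpin against 56.7, 54.7 and 56.9 CPM after knockdown (a log2 difference of 0.16, SE 0.05, adjusted p = 0.0951). ATP6V0B was at 36.9, 33.2 and 35.9 CPM and at 32.5, 25.4 and 31.2 CPM (log2 fold change -0.25, SE 0.10, adjusted p = 0.177). The groups of both genes did not overlap, ATP6V0A1 lying higher and ATP6V0B lower. ATP6V0C, which forms the proteolipid ring, was at 92.4, 106 and 102 CPM and at 90.6, 89.9 and 107 CPM, and its groups overlapped (adjusted p = 0.722). ATP6V0D1 and ATP6V0E1 were at log2 fold changes of -0.20 and 0.04 (adjusted p = 0.246 and 0.910).

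In the cytosolic V1 part, the catalytic subunit gene ATP6V1A was at 110, 106 and 107 CPM with the control hairpin against 116, 124 and 106 CPM after knockdown (a log2 difference of 0.10, 95% interval -0.06 to 0.25, adjusted p = 0.437). Its partner in the ATP-hydrolysing ring, ATP6V1B2, was at 218, 209 and 213 CPM and at 197, 194 and 196 CPM (log2 fold change -0.12, 95% interval -0.23 to -0.02, adjusted p = 0.144). The groups of ATP6V1B2 did not overlap, while those of ATP6V1A did. ATP6V1D, of the central rotor, was at 60.6, 59.1 and 63.4 CPM and at 54.3, 53.3 and 57.3 CPM (log2 fold change -0.15, adjusted p = 0.141). The remaining V1 genes ATP6V1C1, ATP6V1E1, ATP6V1F, ATP6V1G1 and ATP6V1H lay at log2 fold changes of 0.11, 0.02, 0.12, -0.15 and -0.09, with adjusted p of 0.288 to 0.904. Of the accessory proteins, ATP6AP1, which helps assemble the pump, was at 97.0, 101 and 107 CPM and at 90.4, 79.3 and 88.5 CPM (log2 fold change -0.24, SE 0.07, adjusted p = 0.0750). ATP6AP2, the prorenin receptor, was at 244 ± 7.90 and 244 ± 11 CPM. With DESeq2, ATP6V0A1 was called higher and ATP6AP1, ATP6V1B2 and ATP6V1D lower; no other of the 13 alternative settings called a V-ATPase gene.

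Per transcript length, the abundance of the 39 genes was dominated by few of them. CD63 held 28.7% and PSAP 18.6% of their summed TPM in shControl, followed by NPC2 at 7.48% and LAMP1 at 6.83%, and ARSB was lowest at 19.6 TPM. In the V-ATPase, mean TPM in shControl ran from 31.0 for ATP6V0A1 to 283 for ATP6V0E1. The summed TPM of the 39 genes was 8837, 9014 and 8700 in shControl against 10312, 10008 and 10244 in the knockdown, a mean 15.1% higher without overlap. Each role was higher in the mean, by 14.6% for glycosidases, 15.6% for sulfatases, 14.6% for lipid hydrolases and activators, 22.0% for the protease, nuclease and phosphatase genes and 14.8% for membrane proteins. CD63, which did not pass, was the largest part of the membrane protein sum, with means of 2544 TPM in shControl and 3031 TPM in shZNF469. In that role 1 of 10 genes passed, a share of 10% against 9.9% of all genes tested, and the median log2 fold change was 0.11. The summed TPM of the V-ATPase was 2097, 2060 and 2111 in shControl against 1957, 2012 and 2071 in the knockdown, a mean 3.64% lower with overlap. The ratio of V1 to V0 TPM was 1.29 ± 0.0636 and 1.34 ± 0.0909 (SD, n = 3), a difference within the spread of the libraries. These sums carry no test.

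**Figure D3:**
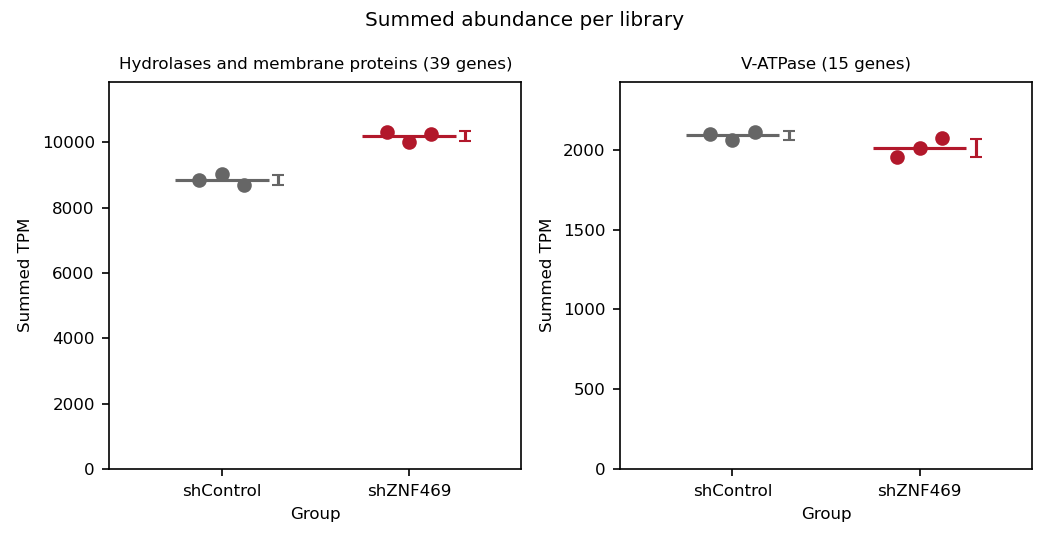
Summed TPM per library (points), with the group mean (line) and SD (bar, n = 3), for the 39 hydrolase and membrane protein genes and the 15 V-ATPase genes; both axes start at 0. The knockdown libraries sit at 10008 to 10312 against 8700 to 9014 for the controls on the left, and the groups overlap on the right.

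Other lysosomal genes outside the 54 were set beside them by lists of known function. Of 22 other lysosomal hydrolases tested, 6 rose and 1 fell in edgeR, a share of 31.8% called against 9.9% of all genes tested. Their median log2 fold change was 0.21, close to that of the 39 genes. limma called 1 of them higher on log2(TPM + 1) and 0 on log2(TPM + 0.1). At an unadjusted p under 0.05, 14 were higher and 1 lower, and DESeq2 also called 14 higher and 1 lower, while edgeR called 9 higher without shZNF469 replicate 2. SCPEP1 and PRCP, serine carboxypeptidases, rose 1.24-fold and 1.19-fold (94.2 ± 0.411 to 117 ± 2.5 CPM, adjusted p = 0.00945, and 245 ± 2.59 to 293 ± 11.2 CPM, adjusted p = 0.0191). ARSG, another sulfatase, rose 1.33-fold (16.0 ± 0.202 to 21.2 ± 1.68 CPM, adjusted p = 0.0191). MAN2B2 and PLA2G15 also rose, and SMPDL3A was the fall. Of these 6 rises, 0 were called without shControl replicate 1, 2 or 3, when no gene of the list was called, 2 were left without shZNF469 replicate 1 and 3 without shZNF469 replicate 3, and the fall was lost whichever single library was left out. Of 11 cathepsin genes tested, the lysosomal proteases, 5 rose and 0 fell in edgeR, a share of 45.5% called against 9.9% of all genes tested. Of these rises CTSK (1.55-fold) and CTSL (1.46-fold) had the lowest p. At an unadjusted p under 0.05, 7 cathepsin genes were higher, and DESeq2 called 7 higher. limma called 2 higher on log2(TPM + 1) and 2 on log2(TPM + 0.1). edgeR called 2, 3, 3 and 2 higher without shControl replicate 1, 2 or 3 or shZNF469 replicate 1, but 8 without shZNF469 replicate 2.

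Genes for the delivery of hydrolases to the lysosome were considered next. Of 10 genes for mannose 6-phosphate tagging and sorting, 1 rose in edgeR, a share of 10% called against 9.9% of all genes tested. DESeq2 called 1 higher and 1 lower. IGF2R, the large mannose 6-phosphate receptor, was at 357, 361 and 336 CPM with the control hairpin against 452, 444 and 405 CPM after knockdown. This 1.23-fold rise (adjusted p = 0.0205) did not hold without shControl replicate 1, 2 or 3 or shZNF469 replicate 1 (0.0789, 0.0636, 0.0856 and 0.0901). Of 22 other lysosomal membrane proteins, 1 rose and 1 fell in edgeR, a share of 9.09% against 9.9% of all genes tested. DESeq2 called 5 higher and 2 lower, and edgeR 3 higher without shZNF469 replicate 2. GPNMB, a membrane glycoprotein of lysosomes and melanosomes, was 1.17-fold higher (1826 ± 35 to 2131 ± 48.7 CPM, adjusted p = 0.00921, and 0.0517 without shControl replicate 1). SLC36A1, which exports amino acids from the lysosome, was 1.35-fold lower (25.1 ± 1.11 to 18.6 ± 1.42 CPM, adjusted p = 0.0151, but 0.0815, 0.0614 and 0.0739 without shControl replicate 1 or 3 or shZNF469 replicate 1).

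Among the 6 tested V-ATPase subunit genes outside the 15, ATP6V0A2, a V0 subunit typical of the Golgi, fell 1.31-fold (16.8 ± 0.919 to 12.8 ± 1.06 CPM, adjusted p = 0.0355), a call lost on leaving out shControl replicate 1, 2 or 3 or shZNF469 replicate 1 or 3 (adjusted p = 0.131, 0.0738, 0.121, 0.114 and 0.0869). ATP6V1C2, named after its values were seen, had the largest log2 fold change of these other V-ATPase subunits and few counts: 30, 25 and 0 counts in shControl and 133, 100 and 90 counts in shZNF469. All knockdown libraries were above the controls, but it did not pass (adjusted p = 0.181), except without shControl replicate 3 (0.0493) and with limma on log2(TPM + 1) (0.0335). Of 8 V-ATPase assembly factors, 0 passed in edgeR, 2 were higher at an unadjusted p under 0.05 and 1 was higher with DESeq2. Of 15 genes of the TFEB family and the Rag and Ragulator complexes, which place nutrient signalling on the lysosome, RRAGD was the 1 that rose in edgeR. That is a share of 6.67% called, against 9.9% of all genes tested. At an unadjusted p under 0.05, 3 were higher (RRAGD, RRAGB and FNIP2), and DESeq2 called 3 higher. RRAGD was at 10.7, 10.9 and 10.03 CPM with the control hairpin against 18.3, 21.4 and 18.7 CPM after knockdown (a log2 difference of 0.88, SE 0.09, adjusted p = 0.00177). TFEB itself was at 5.76 CPM and 5.65 CPM in the mean (adjusted p = 0.907). Its relatives TFE3 and MITF had more counts and did not pass in edgeR either. TFE3 was at 93.2 and 97.9 CPM (adjusted p = 0.465) and MITF at 50.8 and 55.9 CPM (adjusted p = 0.381). These are levels of transcript only.

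**Figure D4:**
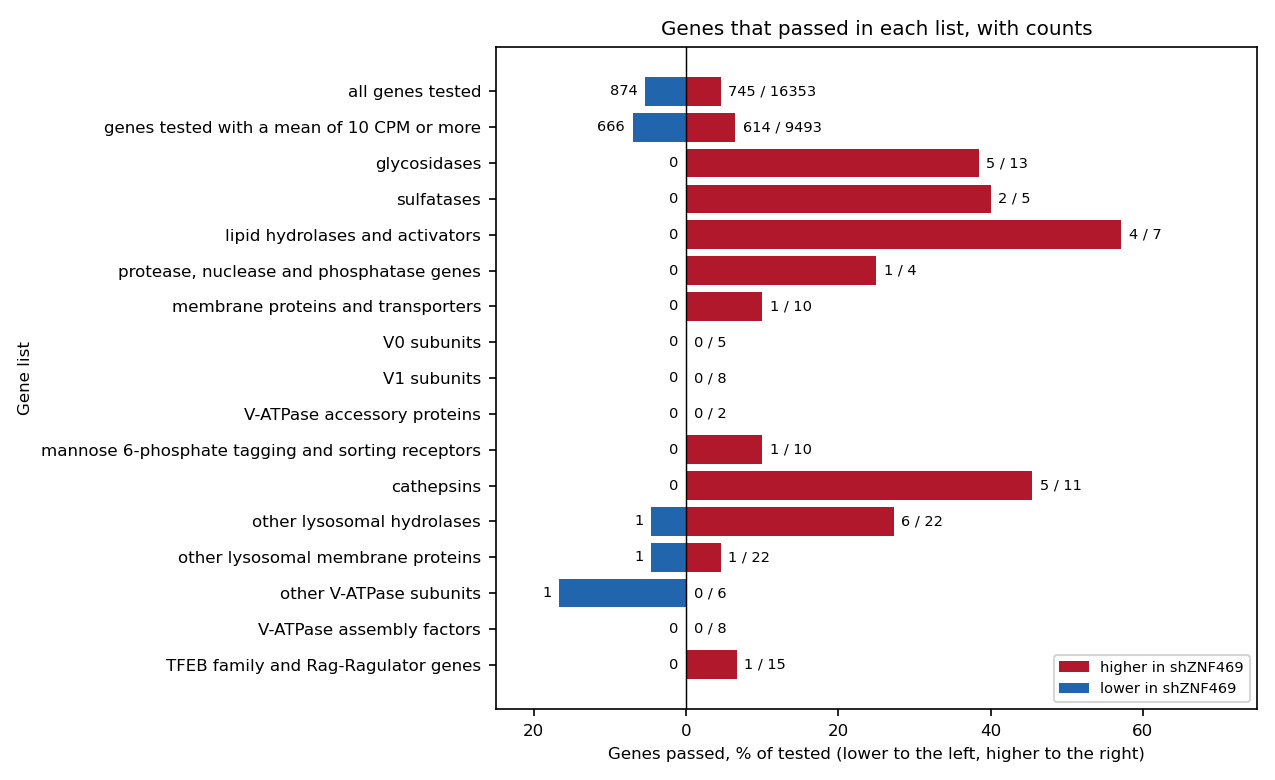
Share of tested genes that passed in each list, higher to the right and lower to the left, with the counts beside each bar. Roles of hydrolases, cathepsins and other lysosomal hydrolases reach 25% to 57.1% higher, against 4.56% of all genes tested, while V-ATPase roles and assembly factors stand at 0.

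Gene properties differed somewhat between the groups of genes. The median length of the longest GENCODE transcript was 3685 bases for the 39 genes and 2432 bases for the V-ATPase, and the median GC content was 51.6% and 46.6%. Within the 39, the median length was 4649 bases for the 13 genes that rose and 2668.5 bases for the 26 that did not pass. Their median GC content was 50.7% and 53.2%. Among all genes with a mean of 10 CPM or more, the median log2 fold change went from -0.04 in the bin of shortest transcripts to 0.05 in that of the longest, and stayed between -0.01 and 0.01 over bins of GC content. The part of length and of GC content in the results was not tested. GENCODE release 29 shows exon overlap with another gene for many of the members, of which a part is given here. Of the 13 genes that rose, IDS shares 16.5% of its exon bases with a same-strand gene at 1.14 CPM in shControl and a log2 fold change of 1.21. TPP1 shares 11.6% with a same-strand gene that was not among those tested. HEXA shares 10.1% with an antisense gene that was not among those tested and 2.89% with HEXA-AS1 (2.03 CPM in shControl, log2 fold change 0.78, edgeR adjusted p = 0.103). It also shares 4.89% with a same-strand gene at 1.12 CPM in shControl. On the opposite strand, ASAH1 shares 1.63% with an antisense gene, and SGSH 2.28% with CARD14 and 0.119% with SLC26A11. MANBA shares 9.69% with a same-strand pseudogene and GLB1 7.33% with an opposite-strand pseudogene, neither among those tested. NPC1 shares 5.98% with RMC1, on the opposite strand, which was at 24.7 CPM and a log2 fold change of -0.03. For ATP6V0C, 57.5% of exon bases are shared with a same-strand gene at 1.07 CPM.

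**Figure D5:**
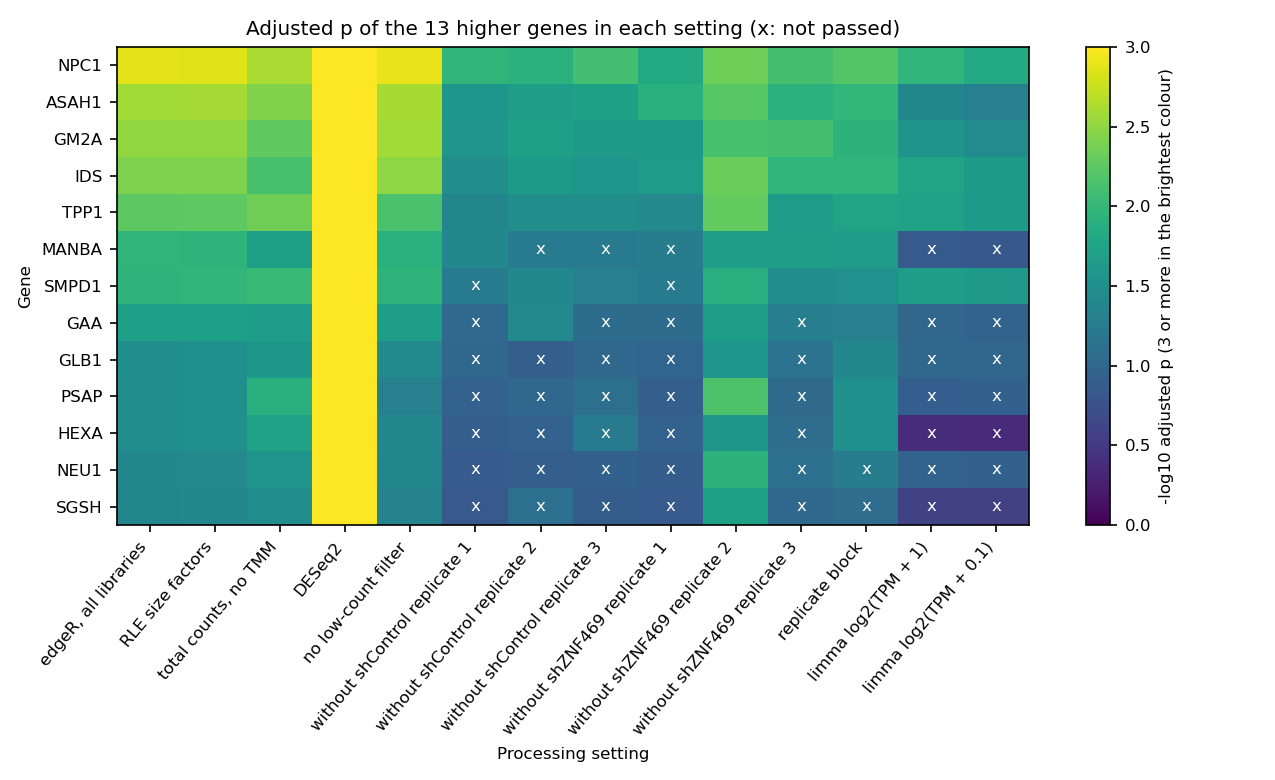
Adjusted p of the 13 genes that rose (rows, ordered by p) under the edgeR test with all libraries and 13 alternative settings (columns), as −log10; a cross marks a value of 0.05 or more. The upper 5 rows, NPC1 to TPP1, have no cross, and the crosses below fall mostly under fits with 5 libraries and under limma on TPM.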

How the data were processed

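Counts of reads per gene and TPM of 6 RNA-seq libraries (3 shControl, 3 shZNF469) were used as the authors deposited them. Both units stand side by side in 1 table. Column-purified total RNA was made into NEBNext Ultra libraries, per the labels' protocols. HISAT2, StringTie and GRCh38.p14 are named without tool versions, per the submitters' processing notes. The annotation release, strand setting and filters are not stated in the sources at hand. Deposited counts ran from 35417366 to 48298264 per library. Of the listed genes, 4195 have no symbol and 58 symbols recur, of which the gene with most counts was kept.

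The counts were analysed with edgeR 4.0.16 in R 4.3.3: filterByExpr with a minimum count of 10, TMM scaling, and the two-sided quasi-likelihood F-test of shZNF469 against shControl over all 6 libraries, without covariate, with Benjamini-Hochberg adjustment over 16353 genes. The threshold was an adjusted p of 0.05. CPM are TMM-scaled. The SE was derived from the estimate and its F statistic, and 95% intervals from that SE and the fit's degrees of freedom. On simulated counts for the 16353 genes, with 200 genes of 10 CPM or more changed, the test recovered 14.9% of 1.25-fold, 79.1% of 1.5-fold and 98.5% of 2-fold changes, and 17 of 145 calls were unchanged genes. The simulation changed 200 genes, while 1619 passed in the data, so these rates need not hold for the data. Changes of the size seen here can have been missed, and some calls may be of unchanged genes. Alternatives were RLE scaling, total counts, DESeq2 1.42.0, no filter, each library left out, the replicate number as a block, and limma 3.58.1 on log2(TPM + 1) and log2(TPM + 0.1) of the deposited TPM.

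The members, roles and other lists were chosen with earlier results of these data known. Per-library values are given for anchor genes (LAMP1, LAMP2, PSAP, HEXA, GAA, CD63, ATP6V0C and ATP6V1A), for the 10 genes with the lowest p among those that passed, for the gene of each role with the largest change, and for further members chosen after their values were seen. Up to 3 members of each other list were named, by lowest p, with RRAGD and TFEB in any case, and some further names were added after their values were seen. Not every gene that passed is named here. Marker lists of fibroblasts, macrophages, melanocytes, keratinocytes, endothelial and mast cells were checked. Of 6 keratinocyte markers KRT10 alone was listed (24.4 to 28.3 TPM in shControl, 18.5 to 18.8 TPM in shZNF469), and it fell (edgeR adjusted p = 0.0190). Of 6 endothelial markers 3 were listed, at 0.904 to 1.66 and 0.550 to 1.35 TPM in sum, and of 5 mast cell markers 2, KIT and CPA3, at 28.0 to 31.6 and 28.5 to 34.1 TPM in sum. CPA3 fell from a mean of 3.71 to 1.18 TPM (edgeR adjusted p = 0.0108). KIT went from 26.2 to 30.3 TPM and did not pass. No pair of libraries in a group was identical; the chi-square of their counts per degree of freedom was 8.70 to 34.8, above sampling noise. Gene positions and promoter windows are RefSeq's on GRCh38.p14, and overlaps, lengths and GC content GENCODE release 29's.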

Additional observations from a re-analysis of the deposited data

How the results depend on the processing

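No alternative setting called a hydrolase or membrane protein gene lower, and the median log2 fold change of the 39 genes stayed between 0.18 and 0.26, that of the V-ATPase between -0.09 and -0.02. Counts of calls moved. DESeq2 called 1638 genes higher and 1642 lower in all, 21 of the 39 higher, and 1 V-ATPase gene higher and 3 lower. limma on log2(TPM + 1) called 233 and 526 in all, on log2(TPM + 0.1) 191 and 462, and 7 of the 39 higher in each, of which 6 were among the 13. With single libraries left out, 204 to 769 genes were higher and 333 to 854 lower, and 5 to 18 of the 39 were higher; fewer libraries enter those fits. The cause of the other differences was not tested. RLE scaling, total counts and no low-count filter kept all 13 calls, total counts adding NAGLU and NPC2. Over the 54 genes and 13 alternatives, 50 calls were lost and 23 gained, and 629 values stayed on their side of the threshold. The fall of ZNF469 passed throughout.

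With the replicate block, 592 genes were higher and 736 lower, and 13 of the 39 were higher, 11 of them as before; NEU1 and SGSH lost their call and FUCA1 and NPC2 gained it. The libraries share only a number: deviations from the group means correlated across genes at r = -0.041, 0.063 and 0.083 for same-numbered pairs, and not every library correlated best with its own number. The lowest count of any member in a library was 544.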
